A study of Caenorhabditis elegans with 2 samples.

Results

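The genes examined here are 10 genes of vitamin B12 dependent metabolism in the nematode Caenorhabditis elegans, out of 19973 nuclear protein-coding genes in the annotation. They are the receptor genes nhr-68, nhr-10 and nhr-114, the propionate shunt genes acdh-1 and hphd-1, the methionine cycle and folate genes metr-1, mtrr-1, mthf-1 and sams-1, and mmcm-1 of the canonical propionate route. They were chosen by name, with some of their values in these data already known, among them a strong replicate 2 region upstream of metr-1. Their ranks and signals are therefore given as descriptions, beside the same values over all genes or all regions, with no test. For each gene, every candidate region that overlapped the gene or the 2000 bp either side of it by at least 1 bp was taken from 3 lists on build ce11.

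The lists come from chromatin immunoprecipitation sequencing (ChIP-seq) of NHR-28, a nuclear hormone receptor, which carried an eGFP tag (an enhanced green fluorescent protein). The tagged receptor came from the insertion wgIs317. Strain OP317 holds that insertion along with unc-119(ed3), and the antibody label reads nhr-28. The animals were whole L3 larvae, labelled as mixed sex, with no other condition or genotype, and the 2 biological replicates came from separate biosamples of one strain. A region cannot be assigned to a tissue. Both replicates were called against the same control alignment. The pooled list held 20876 regions of 340 bp, replicate 1 had 30000 of 350 bp and replicate 2 had 30000 of 340 bp, all of them candidates that include background by construction. Read depth is unknown, because the lists hold no counts. No region of the 3 lists lay at nhr-28 or within 2000 bp of it. At unc-119 the best rank was 11580 in the pooled list, 613 in replicate 1 and 15915 in replicate 2.

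Vitamin B12 is the cofactor of the enzymes methionine synthase (METR-1) and methylmalonyl-CoA mutase (MMCM-1). When the vitamin is scarce, C. elegans breaks down propionate through a shunt that does not need it, and the nuclear hormone receptors NHR-10 and NHR-68 are known to activate the genes of this shunt. The receptor NHR-114 is known to activate methionine cycle genes when that cycle runs low. NHR-28 belongs to the same large receptor family.

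The sequences under the promoter regions of nhr-68, metr-1 and mtrr-1 are shown because these genes had the best-ranked upstream regions of the 10 in any 1 list. They are from the RefSeq sequence of assembly WBcel235 (ce11), on the plus strand, which is the coding strand of the 3 genes. Capitals mark any match, on either strand, to any of 3 motifs. AGGTCA is a half-site of many nuclear receptors in vertebrates. TGATAA is the core site of GATA factors such as the intestinal factor ELT-2. CTGCGTCTC is found at sites bound by many worm factors. The nhr-68 stretch runs from the first base after the divergent gene H12C20.7 to the end of the pooled region (chrV:11572991-11573253).
nhr-68: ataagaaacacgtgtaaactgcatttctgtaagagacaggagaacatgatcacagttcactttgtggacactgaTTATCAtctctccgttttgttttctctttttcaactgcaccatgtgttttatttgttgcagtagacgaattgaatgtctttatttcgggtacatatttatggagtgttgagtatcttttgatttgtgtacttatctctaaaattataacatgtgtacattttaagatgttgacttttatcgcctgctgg
The metr-1 stretch is centred on the summit (chrII:10926200-10926499) and ends 62 bp before the annotated start.
metr-1: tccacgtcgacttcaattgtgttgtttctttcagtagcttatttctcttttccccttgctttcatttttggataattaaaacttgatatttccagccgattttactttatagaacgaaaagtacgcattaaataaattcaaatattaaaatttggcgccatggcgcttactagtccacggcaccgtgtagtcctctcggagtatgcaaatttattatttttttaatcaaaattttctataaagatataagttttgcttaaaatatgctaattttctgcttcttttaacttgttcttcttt
The mtrr-1 stretch lies under the best upstream region of replicate 1 (chrII:9285086-9285385).
mtrr-1: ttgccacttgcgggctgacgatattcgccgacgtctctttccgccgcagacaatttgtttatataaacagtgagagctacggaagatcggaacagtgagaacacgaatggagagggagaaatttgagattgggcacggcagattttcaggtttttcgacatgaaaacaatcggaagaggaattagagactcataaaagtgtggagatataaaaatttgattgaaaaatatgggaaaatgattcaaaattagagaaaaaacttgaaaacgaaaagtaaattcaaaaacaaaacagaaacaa
The capitals in the nhr-68 stretch are TTATCA, which is TGATAA read on the other strand, with its centre 17 bp from the summit. The metr-1 and mtrr-1 stretches held no match to any of the 3 motifs. Their GC content was 31% at metr-1 and 37.3% at mtrr-1, and it was 34.2% at nhr-68, against a median of 33.5% over all pooled regions.

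All 10 genes had a pooled region in the gene or its flanks, as did 74.5% of all protein-coding genes. All 10 also had a replicate 1 region that overlapped a replicate 2 region by at least 1 bp, against 44.8% of all genes, and a pooled region overlapped by both replicates, against 40.6%. The genes separated by rank, which is 1 plus the number of regions of higher signal in the same list. A pooled region ranked 1000 or better was present at 4 of the 10, namely nhr-68, metr-1, mthf-1 and mtrr-1, and at 7.65% of all genes. The same 4 genes had a region ranked 1000 or better in each replicate, against 2.35% of all genes. This count takes a region anywhere in the window and does not ask that the replicate regions overlap. Overlapping replicate regions with both ranks at 1000 or better were present at nhr-68 and metr-1, and not at mthf-1 or mtrr-1. Taken singly, a replicate 1 region of that rank was present at 4 of the 10, against 7.64% of all genes. In replicate 2 it was present at 5, with sams-1 added, against 7.65%. Of the 10, only nhr-68 had a region in the authors' final set, which 1.54% of all genes had.

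**Figure D1:**
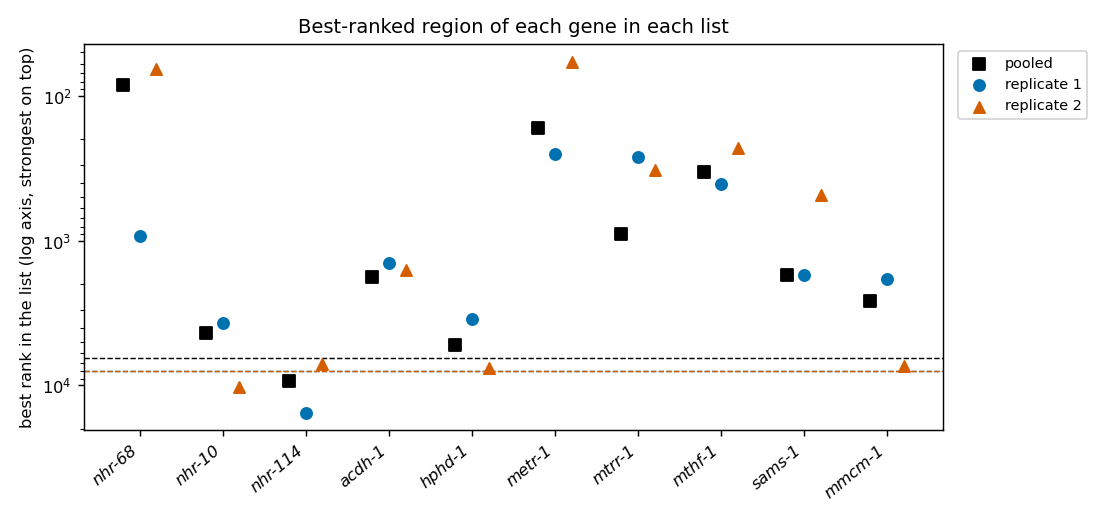
Best rank (log axis, strongest on top) of each gene in the pooled list (squares), replicate 1 (circles) and replicate 2 (triangles), with dashed lines at the median over all protein-coding genes that have a region in that list. nhr-68, metr-1, mtrr-1 and mthf-1 lie above rank 1000 in all 3 lists, and nhr-114 lies at rank 9322 in the pooled list, below its dashed line at 6485.5. The best region of a gene can lie at a different place in each list.

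In order of best pooled rank the genes were nhr-68 (84), metr-1 (168), mthf-1 (335), mtrr-1 (907), sams-1 (1741), acdh-1 (1786), mmcm-1 (2631), nhr-10 (4367), hphd-1 (5239) and nhr-114 (9322). The median of these best ranks was 1763.5, against 6485.5 over all genes with a pooled region. The best ranks in the 2 replicates overlapped between most neighbours in this order. They did not overlap between mtrr-1 (263 and 324) and sams-1 (1722 and 487), nor between acdh-1 (1428 and 1586) and mmcm-1 (1835 and 7295), with replicate 1 given first. The replicates split evenly over which held the better best rank, replicate 1 for 5 genes and replicate 2 for the other 5.

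Among the receptor genes, nhr-68 stood highest. It lies on chromosome V from 11573440 to 11575709, on the plus strand (WBGene00003658). Its strongest region (11572914 to 11573253) had its summit 356 bp upstream of the annotated start, between nhr-68 and the divergent gene H12C20.7, whose start was nearer at 94 bp. The pooled signal there was 39.8, at rank 84 and with a q value of 0.00592. Replicate 1 had a signal of 10.8 (rank 924) with its summit at the same base, and replicate 2 a signal of 31.0 (rank 65) with its summit 35 bp away. The region was thus called in both replicates and stood higher in replicate 2. The other final region at nhr-68 (11575344 to 11575683) had a pooled signal of 36.7 and rank 116. Its summit was in a coding exon near the end of the gene, 2074 bp from the gene start and 481 bp downstream of the start of a shorter nhr-68 transcript. Replicate 2 ranked it 108 with a signal of 25.7, whereas replicate 1 ranked it 5176 with a signal of 7.46, so this region was strong in replicate 2 alone. A further replicate 2 region at rank 509, 1974 bp upstream, lay in a coding exon of nhr-101 and had no counterpart in replicate 1.

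The genes with best ranks most like those of nhr-68 over the 3 lists, at other loci, were ifet-1, ins-17 and rps-1. Their distance was 0.53, as the Euclidean distance of log2 best ranks over 3 lists. They are neighbours on chromosome III that share 1 best region, which ranked 76 in the pooled list, 768 in replicate 1 and 88 in replicate 2.

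nhr-10 (chromosome III, 7112295 to 7115438, minus strand, WBGene00003609) had 4 pooled regions, and none ranked better than 4367. That region (signal 16.2) peaked 515 bp past the end of the gene, in a coding exon of B0280.7. Replicate 1 ranked the overlapping region 4343 (signal 7.81) and replicate 2 ranked it 28675 (signal 6.59), which is close to the bottom of that list. This was the single pair of overlapping replicate regions at nhr-10. The pooled region in an nhr-10 intron, 814 bp from the start, ranked 5167 and was met by replicate 1 alone (rank 15044). No pooled region lay upstream of nhr-10. Each replicate had 1 region there, and the 2 did not overlap. Their summits were 1523 bp upstream in replicate 1 (rank 6476) and 1896 bp upstream in replicate 2 (rank 10439).

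nhr-114 (chromosome V, 4187202 to 4190008, plus strand, WBGene00003704) had the weakest best rank of the 10. The gene lies inside an intron of Y45G5AM.9, which is on the other strand, so its regions can be counted for either gene. The best pooled region, in an intron of nhr-114 and 98 bp from the start of a shorter transcript, had a signal of 13.5 and rank 9322. Replicate 2 ranked it 7108 (signal 10.8), and replicate 1 had no region there. The best replicate 1 region in the nhr-114 window ranked 15455. At the gene start itself, a pooled region with its summit 38 bp upstream had a signal of 10.5 and rank 20459, with ranks of 23653 in replicate 1 and 24387 in replicate 2. These values lay near the lowest pooled signal of 10.4. An AGGTCA match spanned the annotated start in that region, on the plus strand (chrV:4187191-4187216), and is shown with 10 bases either side because it lies at a receptor gene's start.
nhr-114: ggcgtatttcAGGTCAaaatgacacc

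Among the propionate shunt genes, neither acdh-1 nor hphd-1 had a region ranked 1000 or better in any list. hphd-1, which encodes the shunt's hydroxypropionate dehydrogenase, lies on chromosome II from 12994354 to 12996571 on the minus strand (WBGene00012608). Its best pooled region was in the 3′ UTR (signal 15.5, rank 5239), with ranks of 5082 in replicate 1 and 27426 in replicate 2. A pooled region at the 5′ end, 133 bp from the gene start and 55 bp upstream of the start of a shorter transcript, ranked 10180. Replicate 1 ranked it 5151 (signal 7.48) and replicate 2 ranked it 19392 (signal 7.88). Both hphd-1 pairs thus ranked higher in replicate 1. The 5′ region held a CTGCGTCTC match on the minus strand, the strand of the gene, 8 bp from the summit and in an hphd-1 intron (chrII:12996416-12996444). It is shown with 10 bases either side as the nearest match of this motif to a summit.
hphd-1: gtttgcccgtCTGCGTCTCtcctctctcc

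acdh-1 encodes the acyl-CoA dehydrogenase of the first shunt step (chromosome I, 6497436 to 6499560, plus strand, WBGene00016943). Its best pooled region had a signal of 19.2 and rank 1786, with the summit in a coding exon 25 bp downstream of the start. Replicate 2 placed its best region at almost the same position, 17 bp from the start (signal 14.9, rank 1586). Replicate 1 had its best region 437 bp from the start (signal 9.87, rank 1428) and another at 230 bp (signal 8.46, rank 3062). Only the one at 230 bp overlapped the replicate 2 region, by 132 bp and with summits 213 bp apart. Each replicate thus held a region near the acdh-1 start at a similar rank, and the summits did not coincide. The other pooled region, in a coding exon 1561 bp from the start, had rank 5035 and was overlapped by replicate 1 (rank 1677) but by no replicate 2 region.

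**Figure D2:**
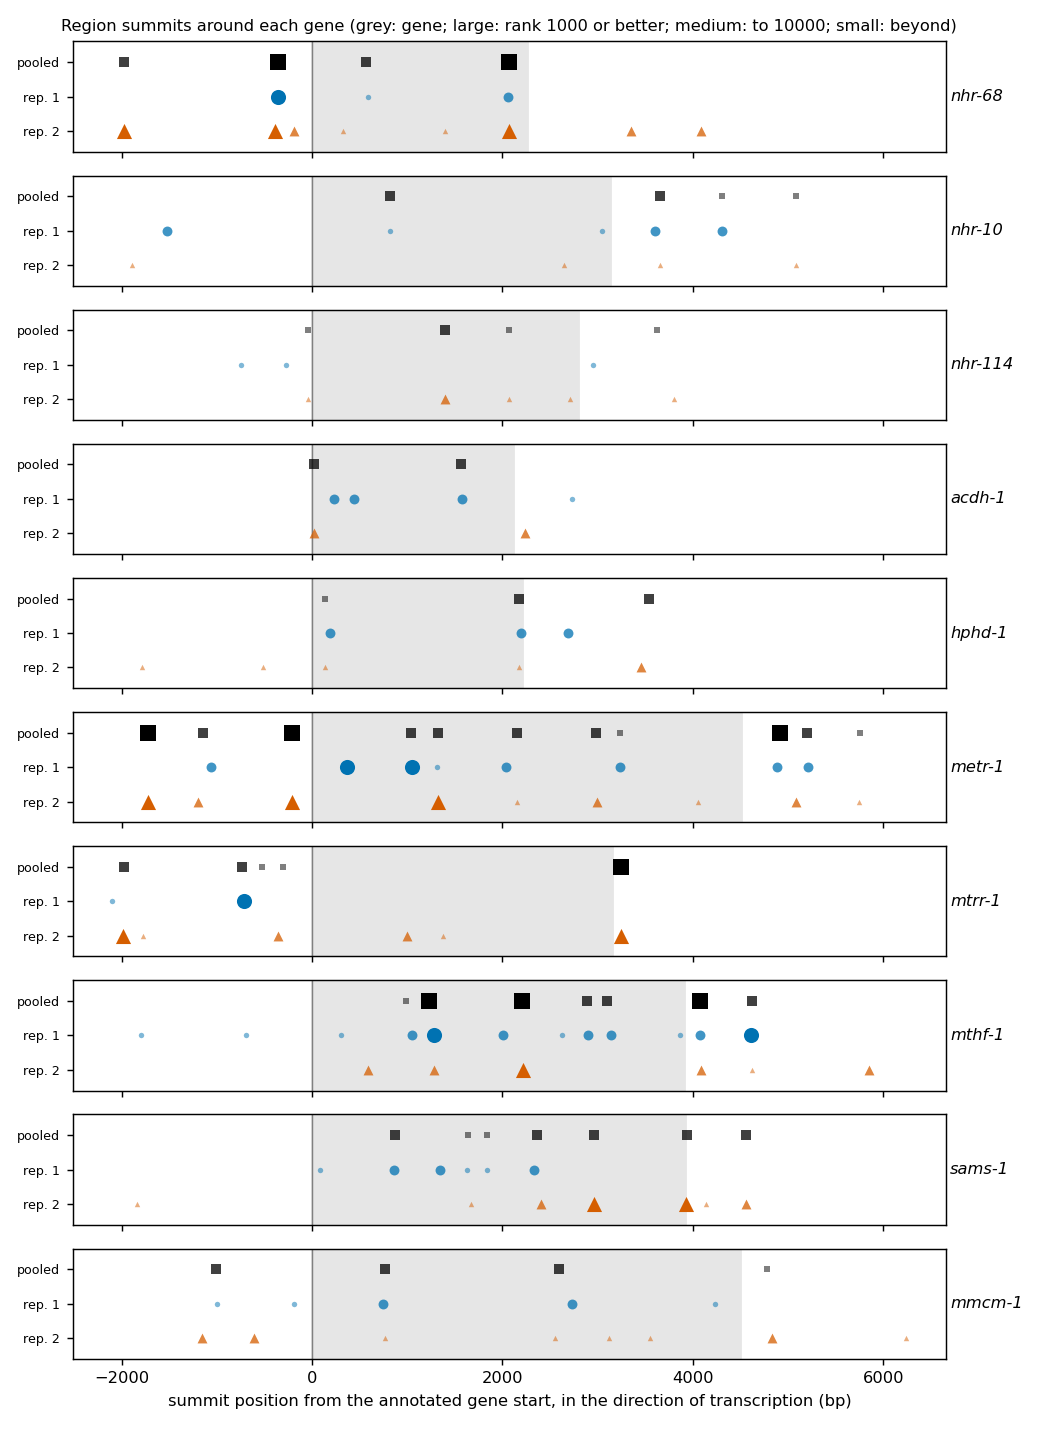
Summits of all regions around each gene, as distance in bp from the annotated gene start in the direction of transcription, for the pooled list (squares), replicate 1 (circles) and replicate 2 (triangles), with the gene in grey. Large symbols are ranked 1000 or better, medium symbols up to 10000 and small symbols beyond. The large symbols in the nhr-68 promoter lie within 35 bp of each other, whereas at metr-1 those of replicate 1 lie in the gene and those of replicate 2 lie mostly upstream.

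Among the methionine cycle genes, metr-1, the methionine synthase gene, carried the densest cluster of pooled regions among the 10. It lies on chromosome II from 10926561 to 10931078 on the plus strand (WBGene00010988). The gene and its flanks held 11 pooled regions, 8 from replicate 1 and 9 from replicate 2. This is 1.29 pooled regions per kb, and 0.035% of all protein-coding genes had as many per kb or more, while the median over all genes was 0.191. Some of the 11 overlapped each other. With overlapping regions merged there were 8, or 0.939 per kb, a density that 0.135% of genes reached on the same merged count. In the single replicates, other genes were denser, mthf-1 in replicate 1 (1.52 per kb) and nhr-68 in replicate 2 (1.28 per kb).

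The strongest metr-1 region was in the promoter. Its summit was 211 bp upstream of the start (10926180 to 10926519), with a pooled signal of 32.3, rank 168 and a q value of 0.0149. It falls just outside the final set, whose weakest region ranked 162 with a signal of 32.8. Replicate 2 called exactly the same interval with a signal of 32.03 at rank 58. Replicate 1 had no region that overlapped it, and its nearest summit was 577 bp away, in the coding sequence 366 bp downstream of the start (signal 13.7, rank 252). That replicate 1 region was in turn overlapped by no pooled region. The promoter region therefore rests on replicate 2, and the strongest replicate 1 region lies on the other side of the metr-1 start.

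Further upstream, 1723 bp from the metr-1 start and past the end of the small gene Y19D2B.2, a pooled region had a signal of 24.3 and rank 512. It too came from replicate 2 (signal 23.0, rank 160), with no replicate 1 region over it. Regions in the coding exons of metr-1 were found in both replicates. At 1037 and 1326 bp from the start, pooled regions of rank 2054 and 1219 overlapped each other, a replicate 1 region of rank 783 (signal 11.1) and a replicate 2 region of rank 946 (signal 16.3). These replicate regions shared 71 bp, with summits 274 bp apart. Another replicate 1 region matched the replicate 2 region more closely, sharing 334 bp with summits 11 bp apart. It was weaker, at rank 14513 with a signal of 5.40. Past the end of the gene, by 402 bp, a pooled region of signal 23.3 ranked 620, with replicate ranks of 1342 and 1550. It was the metr-1 region with an AGGTCA match (minus strand, chrII:10931526-10931551), 58 bp from the summit, and is shown for comparison with the nhr-114 site.
metr-1 downstream: ttgacgtggcAGGTCAgaattgaata

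mtrr-1 encodes methionine synthase reductase, which keeps methionine synthase active (chromosome II, 9285975 to 9289132, plus strand, WBGene00006510). The replicates placed their strong mtrr-1 regions at different positions. Replicate 1 had its best region 720 bp upstream (signal 13.6, rank 263), where the pooled signal was 13.8 (rank 8629) and no replicate 2 region overlapped the pooled one. Replicate 2 had its best region 93 bp past the end of the gene (signal 19.7, rank 324), where the pooled signal was 21.7 (rank 907) and the nearest replicate 1 summit was 3968 bp away. The other strong replicate 2 region lay 1981 bp upstream (signal 18.0, rank 519), over a replicate 1 region of rank 18484 and signal 4.88. None of the strong regions at mtrr-1 was thus ranked 1000 or better by both replicates. Just beyond the window, 2845 bp from the gene, the next pooled region ranked 280 with a signal of 27.96. The last one inside, 1806 bp from the gene, ranked 1352 with a signal of 20.2.

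mthf-1, the gene for methylenetetrahydrofolate reductase, which supplies the methyl group for methionine synthesis, lies on chromosome II from 7773904 to 7777823 on the minus strand (WBGene00015512). Its 7 pooled regions all lay within the gene or past its end, and 3 of them ranked 1000 or better. The best, in a coding exon 2209 bp from the gene start, had a signal of 26.8 and rank 335. The replicate 2 region over it ranked 230 (signal 21.3) and the replicate 1 region over it ranked 5781 (signal 7.25). These 2 replicate regions shared 135 bp, with summits 210 bp apart. The next had its summit in the 5′ UTR of a shorter transcript, 192 bp from that transcript's start, with a signal of 25.99 and rank 376. At that place the replicate summits fell on the same base, with signals of 12.4 in replicate 1 (rank 408) and 14.8 in replicate 2 (rank 1619). It was the mthf-1 region with the closest match in position between replicates. The region of rank 475 lay 161 bp past the gene end, in an intron of C06A8.6, with replicate ranks of 4205 and 5638.

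sams-1 encodes an S-adenosylmethionine synthetase (chromosome X, 11965962 to 11969893, plus strand, WBGene00008205). Its 7 pooled regions all lay downstream of the start. The strongest, in an intron 2965 bp from the start, had a signal of 19.3 and rank 1741. Replicate 2 gave it a signal of 17.2 (rank 689), and replicate 1 had no region over it. Replicate 2 had its best region 2 bp past the gene end (signal 18.2, rank 487), again without a replicate 1 region. The best replicate 1 region, 2334 bp from the start, had a signal of 9.51 and rank 1722, and the replicate 2 region over it ranked 4961. The stronger sams-1 regions were therefore from replicate 2, and the strongest one met by both replicates was weaker (pooled rank 3962). A coding-exon region of rank 9372 held a CTGCGTCTC match and an AGGTCA match, at a GC content of 55.3%, the highest of the 51.

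mmcm-1 encodes methylmalonyl-CoA mutase, the other B12-dependent enzyme (chromosome III, 3903185 to 3907687, minus strand, WBGene00014202). Its best pooled region, in an intron 770 bp from the start, had a signal of 17.9 and rank 2631. Replicate 1 ranked it 1835 (signal 9.39) and replicate 2 ranked it 19913 (signal 7.80), with summits 29 bp apart. An upstream region 1014 bp from the start ranked 5433, with replicate ranks of 11471 and 8532. No region at mmcm-1 ranked better than 1835 in any list.

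Taking the regions of the 10 genes as a group, the pooled list held 51, replicate 1 held 51 and replicate 2 held 60. Of the 51 pooled regions, 36 (70.6%) were overlapped by a replicate 1 region, against 55.2% of all pooled regions. A replicate 2 region overlapped 44 of them (86.3%), against 76.6%, and both replicates overlapped 29 (56.9%), against 36.5%. Replicate 1 alone overlapped 7 (13.7%), against 18.7%, replicate 2 alone 15 (29.4%), against 40%, and neither replicate 0 of the 51, against 4.71%. These shares are a description with no test, and the 51 regions are not independent: metr-1 supplied 8 of the 29 met by both replicates, and some of its pooled regions overlap each other and share replicate regions. A q value of 0.05 or less was reached by 3 of the 51 (5.88%), the 2 final regions of nhr-68 and the metr-1 promoter region, against 1.47% of all pooled regions. In replicate 1 it was reached by 7 of 51 (13.7%), against 4.7% of that list, and in replicate 2 by 6 of 60 (10%), against 1.56%. All of these lay at nhr-68, metr-1, mtrr-1 or mthf-1. By position, 11 summits lay upstream of the start, 26 in the gene and 14 past its end. Within 500 bp of an annotated start of the gene, on either side, lay 10. These positions were not compared with those of all pooled regions.

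**Figure D3:**
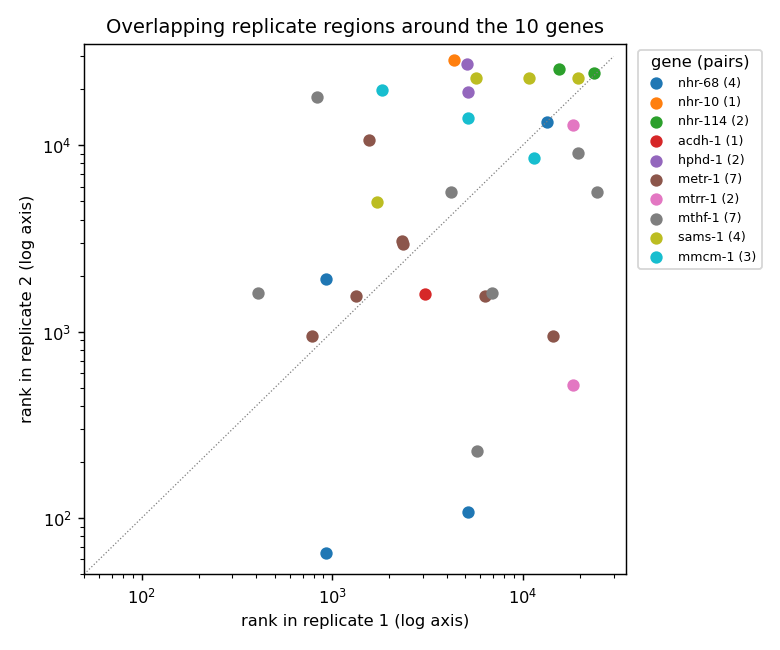
Rank in replicate 1 against rank in replicate 2 (log axes) for the 33 pairs of overlapping replicate regions, coloured by gene, with the dotted line marking equal ranks. The points scatter widely on both sides of the line, and 2 pairs, at nhr-68 and metr-1, have both ranks at 1000 or better.

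Between the replicates there were 33 overlapping pairs of regions in the 10 windows, some of which share a region. Replicate 1 gave the better rank in 20 pairs and replicate 2 in 13. Both ranks were 1000 or better in 2 pairs, the nhr-68 promoter pair (summits 35 bp apart) and the metr-1 exon pair (summits 274 bp apart). Summits in a pair were 0 to 325 bp apart with a median of 161 bp, against a median of 130 bp over all 9693 pairs in the genome, and 9 of the 33 were within 50 bp. The counts of pairs by rank and by the 50 bp limit were not compared with those over all pairs, so they only describe these windows.

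The regions lay close together at most of these genes. With overlapping regions counted separately, the density of pooled regions had a median of 0.613 per kb over the 10 genes, against 0.191 over all genes. It was 0.621 against 0.305 in replicate 1 and 0.821 against 0.303 in replicate 2. acdh-1 had the lowest pooled density of the 10 (0.327 per kb), and 27.4% of all genes had as many per kb or more. After metr-1, the densest were mthf-1 and sams-1, at 0.884 and 0.883 per kb. With overlapping regions merged, sams-1 came next at 0.756, then nhr-68 at 0.638 and mthf-1 at 0.631. The share of all genes as dense as mthf-1 was 0.541% unmerged and 2.90% merged. At mtrr-1, merging lowered the density from 0.699 to 0.419 per kb, and the share of genes as dense rose from 2.26% to 13.4%. Expression was not measured, so whether density goes with it was not tested.

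**Figure D4:**
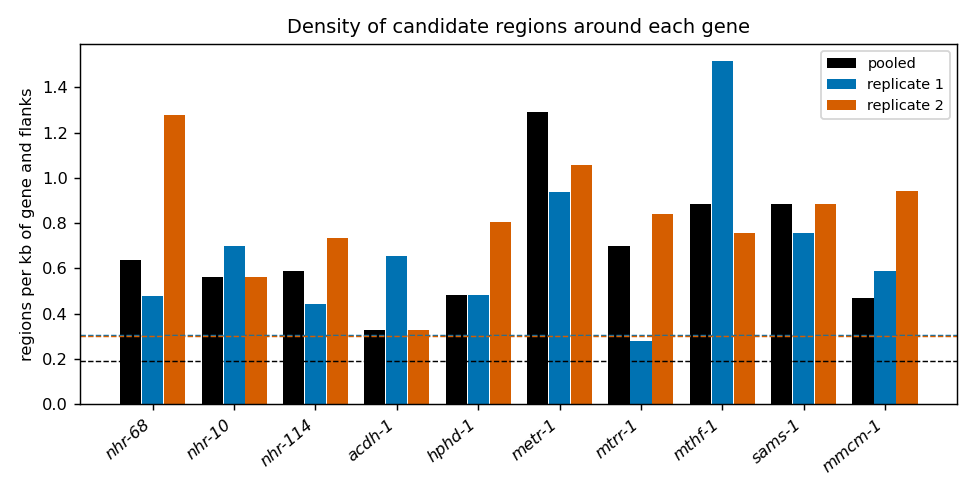
Regions per kb of the gene and its flanks in the pooled list (black), replicate 1 (blue) and replicate 2 (orange), with dashed lines at the median over all protein-coding genes in each list. The bars start at 0. metr-1 has the highest pooled density at 1.29 per kb, and the replicate 1 bar of mtrr-1 is the lowest, below its dashed line.

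AGGTCA was present in 5 of the 51 pooled regions (9.80%) and in 7.91% of all 20876. TGATAA was present in 14 (27.5%) and in 30.1% of all, and CTGCGTCTC in 2 (3.92%) and in 1.93% of all. The CTGCGTCTC share rests on 1 region at hphd-1 and 1 at sams-1. Both strands were searched over the full 340 bp, and overlapping matches were counted once per region. A TGATAA match lay in the strongest nhr-68 region and in the metr-1 region of rank 512, 14 bp from its summit. Nothing follows from a present or an absent match about the binding of a factor.

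The list of 30 other genes of the same pathways, also chosen with earlier results known, is given next to the 10. A pooled region lay at 27 of the 30 (90%), against 74.5% of all genes. A pooled region overlapped by both replicates lay at 17 (56.7%), against 40.6%. These were ech-6, hach-1, alh-8 and acdh-2 of the shunt list, pccb-1, mce-1, mmaa-1, mmad-1, cblc-1 and pmp-5 of the canonical route and cobalamin handling, sams-5, ahcy-1, pmt-1 and pmt-2 of the methionine cycle, cbs-1 of transsulfuration, and dao-3 and alh-3 of folate metabolism. By list, they were 4 of 4, 6 of 9, 4 of 6, 1 of 4 and 2 of 7 genes, counts too small to set against that share list by list. A pooled region ranked 1000 or better was present at 7 of the 30, against 7.65% of all genes. None of these genes was in the transsulfuration or folate lists, which at 4 and 7 genes are too small to set against that share. In replicate 1, though not in replicate 2, the folate genes alh-3 (rank 677) and dao-3 (rank 855) had a region ranked 1000 or better.

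The best regions of most of these 7 genes lay nearer to the start of another gene. The best pooled rank in the list was 35 at acdh-2, an acyl-CoA dehydrogenase gene, with a pooled signal of 60.3 and replicate ranks of 55 and 40. Its summit was 1169 bp past the end of acdh-2, on the spliced leader RNA gene sls-2.2, and the nearest protein-coding start was that of ins-13. mmaa-1, whose human counterpart helps load cobalamin onto the mutase, had a final region with a signal of 37.4 and rank 109 (replicate ranks 502 and 107), 125 bp past its end and 865 bp upstream of mct-5. At ech-6, the enoyl-CoA hydratase gene of the shunt, a pooled region of rank 461 had its summit 71 bp upstream of a transcript start of the neighbour T05G5.5. Replicate 1 ranked it 275 and replicate 2 ranked it 4141. At ahcy-1, the S-adenosylhomocysteine hydrolase gene, a region of rank 967 lay 569 bp upstream of its own start, with replicate ranks of 8154 and 2075. Of the 7 best regions ranked 1000 or better, those at ahcy-1 (rank 967) and pmp-5 (rank 421) had their own gene as the nearest start. The other 5 did not.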

How the data were processed

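The data were ChIP-seq peak lists of eGFP-tagged NHR-28 in 2 biological replicates of L3 larvae. Per the deposited file list, the authors called candidate regions from each replicate and from both pooled, against 1 control alignment. They then filtered the pooled regions by reproducibility (irreproducible discovery rate) to obtain the final set. Caller, aligner and thresholds: not stated in the labels or headers. The signal per region is as deposited, on an unstated scale, so it was only ranked or described within 1 list. The q values were taken from the deposited −log10 values. Depth is unknown, so no interval is given.

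Regions on ce11 were assigned to Ensembl release 115 genes of assembly WBcel235 by overlap with the gene and 2000 bp either side. Tied signals took the better rank. Region ends lay within the reference chromosome lengths. Lists on ce10 were not used. Position calls use annotated starts. The members, lists and motifs were chosen with earlier results of these data known. All 10 members were named. Pathway genes were named if a pooled region at the gene was overlapped by both replicates or if best ranked, with neighbours where nearest. The details of 4 pathway regions were chosen after their values were seen. No test was made. Alternatives were other windows, overlap rules and list lengths, and each replicate left out; merging, nearest starts and RefSeq models were added after seeing the data. The overlap code was tested on simulated regions (Python 3.11.15, pandas 2.3.3).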

Additional observations from a re-analysis of the deposited data

How the results depend on the processing

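Most counts kept within 1.5 times of their value under the alternatives. With the strongest 10000 regions of each list, 5 of the 10 genes, not 10, had overlapping replicate regions, and likewise 5 had a pooled region overlapped by both, while the pathway list fell from 17 to 9 for each. In the gene body alone, those 2 pathway counts were 9 and the number with a pooled region ranked 1000 or better was 2, not 7. Those fewer regions and shorter windows are the construction of these alternatives. Of the 10 genes, 8 had overlapping replicate regions in the gene body alone or with an overlap of 0.5 of the shorter region. No share of all protein-coding genes is given under the alternatives. The counts here and below therefore cannot be set against the shares given for the main setting.

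Without replicate 1 or replicate 2, with the strongest regions of the remaining list in place of the pooled and final ones, the number of the 10 genes with a final region ranged from 0 to 2, and was 0 without replicate 2. Those with a region ranked 1000 or better ranged from 4 to 5. For the pathway list this range was 5 to 6, and 26 to 28 for any region. Agreement between replicates cannot be recomputed with 1 replicate left.

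Counting a region only for the nearest start left 3 genes with a pooled region ranked 1000 or better, mtrr-1 being lost, and the best pooled rank of nhr-68 was then 116. In the gene body alone the best pooled rank of metr-1 was 1219. RefSeq gene models, matched for 40 of 40 genes, changed no count. Within 5000 bp, the best pooled rank of mtrr-1 was 280 and that of nhr-114 was 2356. No paired analysis was possible because the series has 1 group. Unknown depth and 2 replicates limit how firmly a region found in 1 replicate can be read.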
